A study of Mus musculus with 6 samples.

Results

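The genes of the cytosolic ribosomal proteins were followed in the marrow of adult female mice of 2 crosses. Members were probe sets whose only gene symbol on the platform begins with Rpl or Rps and a digit, or is Rplp0, Rplp1, Rplp2 or Rpsa, leaving out the S6 kinases, pseudogenes and copies whose symbol ends in l after the number. The rule gave 100 of 45037 probe sets and 46 of 18193 genes. Of these genes 43 encode ribosomal proteins, 22 of the large and 21 of the small subunit. The other 3 met the letters of the rule only: Rps19bp1 encodes a binding partner of Rps19, and Rpl7l1 and Rpl22l1 are paralogs.

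One group of 3 arrays came from F1 animals of AKR/J crossed with FVB/NJ, called AKR F1 here, and the other group of 3 from F1 animals of DBA/2J crossed with FVB/NJ, called DBA F1 here. Both crosses share the FVB/NJ parent, no treatment separates them, and the question was which genes differ at baseline. Whole marrow was used, so fewer cells of a type and less RNA per cell cannot be told apart. The labels do not say that the arrays of a group came from separate animals, so p-values cover only the spread among these arrays, which may be technical.

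Ribosomal proteins assemble with ribosomal RNA in the nucleolus into the small subunit, which decodes the mRNA, and the large subunit, which joins amino acids. Most of their mRNAs begin with a run of pyrimidines, the terminal oligopyrimidine (TOP) tract, through which mTOR signalling controls their translation together with that of elongation factors. In marrow the supply of these proteins is known to matter most for red cell precursors: inherited loss of 1 copy of any of several of the genes causes Diamond-Blackfan anaemia in humans.

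That shared feature can be read at the start sites. RefSeq promoter windows (GRCm38.p6) were found for 41 of the 46 genes, and the 60 bases around the annotated start, 30 on each side, are printed for the 7 genes whose probe sets the results turn on most. Letters run 5′ to 3′ on the gene's strand, and capitals mark the longest run of at least 6 letters that are C or T.
Rps6: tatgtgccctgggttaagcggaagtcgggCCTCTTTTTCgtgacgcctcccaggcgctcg
Rps15: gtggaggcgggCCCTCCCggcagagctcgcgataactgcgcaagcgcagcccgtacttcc
Rpl13a: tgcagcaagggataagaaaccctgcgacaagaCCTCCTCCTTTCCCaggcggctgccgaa
Rpl27a: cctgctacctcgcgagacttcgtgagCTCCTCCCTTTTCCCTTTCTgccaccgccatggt
Rpl35: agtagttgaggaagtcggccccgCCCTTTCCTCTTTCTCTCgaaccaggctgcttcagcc
Rps3: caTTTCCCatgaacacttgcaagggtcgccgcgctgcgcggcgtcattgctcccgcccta
Rps18: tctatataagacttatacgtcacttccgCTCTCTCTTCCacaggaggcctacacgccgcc

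The windows on the minus strand lie at chr4:86857338-86857397 for Rps6, chr7:45128716-45128775 for Rpl13a, chr2:39005102-39005161 for Rpl35, chr7:99483680-99483739 for Rps3 and chr17:33955636-33955695 for Rps18. Those on the plus strand lie at chr10:80292401-80292460 for Rps15 and chr7:109519165-109519224 for Rpl27a. In Rps6, Rpl27a, Rpl35 and Rps18 the run covers the annotated start, in Rpl13a it lies just after it, and in Rps15 and Rps3 the longest run lies wholly before it. A run of at least 6 C or T letters on the sense strand within 30 bases of the start was present in 32 of the 41 members (78%), against 53.5% of the 27025 genes in the table. Runs of A or G searched the same way were in 48.8% of the members and 57.3% of all genes.

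Shorter motifs were counted as well. The letters CTTTC, searched on the sense strand in the same 60 bases, were in 13 of 41 members (31.7%), against 9.18% of all genes, while the reverse complement GAAAG was in 9.76% and 8.58%. In the whole window from 250 bases before to 50 after the start, searched on both strands, CCGGAA, the core of ETS factor sites, was in 26 members (63.4%), against 16.7% of all genes. GGGCGG, the core of Sp1 sites, was in 61% of members and 38.2% of all genes. TATAA between 40 and 15 bases before the start was in 5 members (12.2%) and 5.28% of all genes. These matches describe letters in a window and were not tested as sites.

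Ribosomal protein transcripts gave some of the strongest signals on the arrays. Of the 46 genes, each read from its brightest probe set, 30 had a mean log2 value of at least 13, 4 lay between 12 and 13 and 12 lay below 12, while only 1.2% of all genes reached 12. Rps29, a small subunit protein, had 14.15, 14.20 and 14.21 in AKR F1, against 14.09, 14.12 and 14.14 in DBA F1. Rpl37a, of the large subunit, had 13.93, 14.01 and 14.05 in AKR F1, against 13.79, 13.80 and 13.84 in DBA F1. At these probe sets of both genes every AKR F1 array lay above every DBA F1 array, by a small margin. A dimmer probe set of Rps29 had AKR F1 above as well, with a log2 difference of 0.04, AKR F1 minus DBA F1. Another had every DBA F1 array above, with a difference of -0.07.

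The strong signals differed little between the crosses. The 3 arrays of Rpl38, a large subunit protein, read 13.71, 13.81 and 13.74 in AKR F1, against 13.63, 13.63 and 13.69 in DBA F1. Rps14, of the small subunit, had 13.57, 13.60 and 13.62 in AKR F1, against 13.62, 13.69 and 13.78 in DBA F1, so its groups overlapped at their edges. Rps24, also of the small subunit, had 13.57, 13.63 and 13.60 in AKR F1, against 13.65, 13.66 and 13.72 in DBA F1, with every AKR F1 array the lower. The differences of these 5 genes were 0.07 for Rps29, 0.18 for Rpl37a, 0.10 for Rpl38, -0.10 for Rps14 and -0.07 for Rps24, given as log2 values of AKR F1 minus those of DBA F1, and their adjusted p in limma lay between 0.17 and 0.60. Each probe set has its own response, so these values do not rank the genes against each other.

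**Figure D1:**
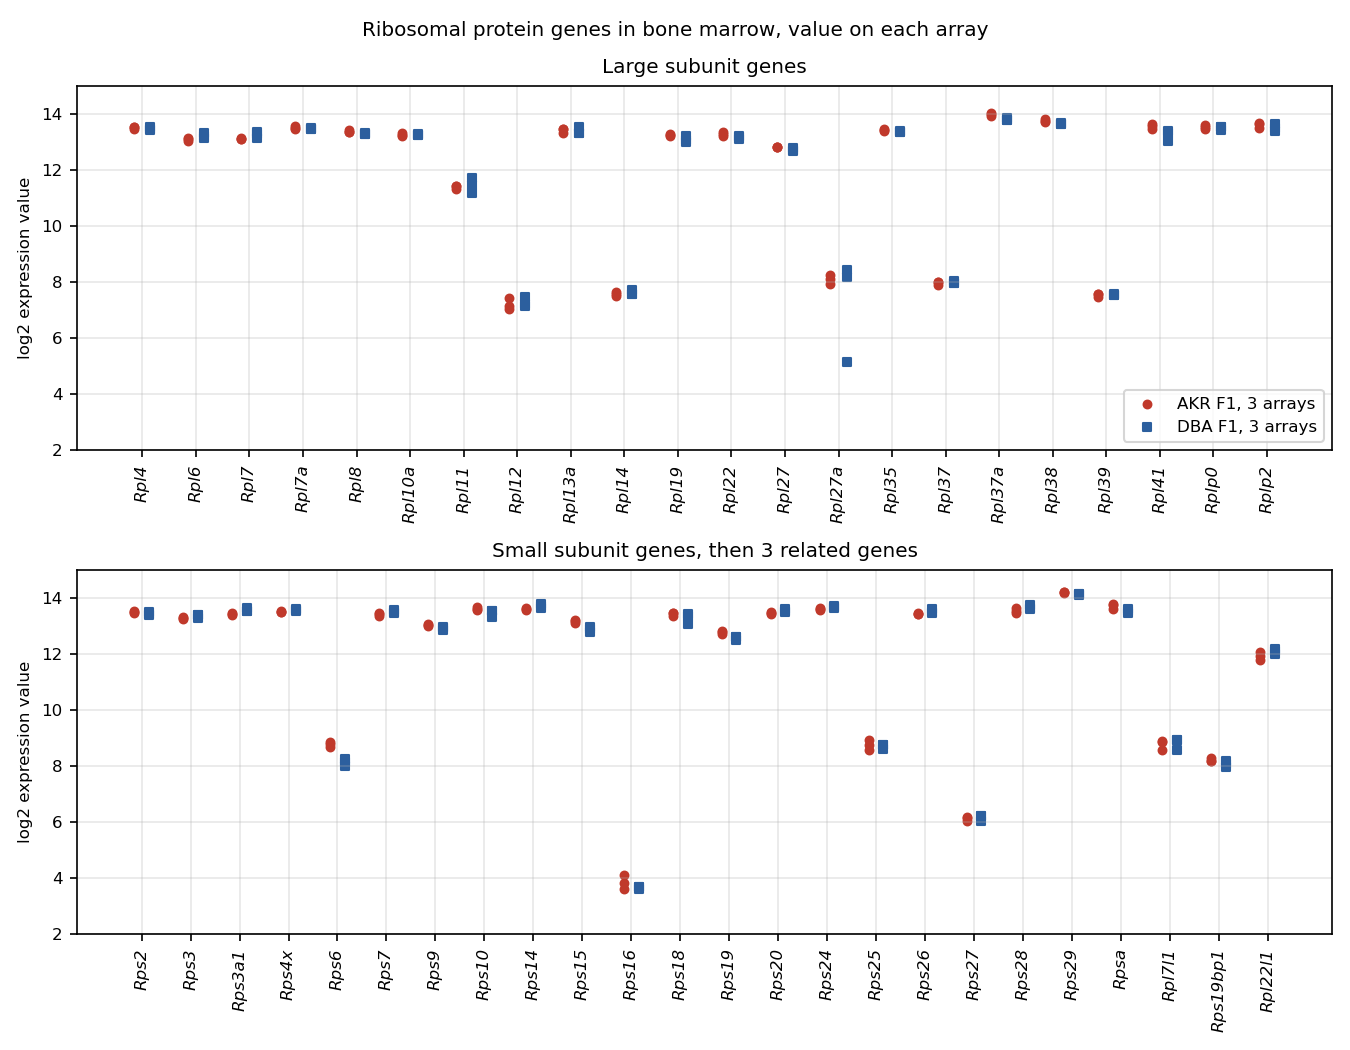
Log2 expression value of each member gene on each of the 6 arrays, with AKR F1 arrays as circles and DBA F1 arrays as squares, 3 each. The symbols of most genes lie on top of each other near 13, and the DBA F1 array of Rpl27a at 5.14 stands away from the rest.

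A few members had weak signals at the single-symbol probe set that stands for them. The 5 dimmest were Rps16, Rps27, Rpl12, Rpl39 and Rpl14. Rps16 had 3.81, 3.59 and 4.10 in AKR F1, against 3.60, 3.68 and 3.67 in DBA F1, overlapping values near the floor of the arrays. Rps27 averaged 6.12 ± 0.07 in AKR F1 and 6.14 ± 0.10 in DBA F1, and Rpl12 averaged 7.20 ± 0.21 in AKR F1 and 7.27 ± 0.18 in DBA F1 (SD, n = 3 each). Rpl39 averaged 7.52 ± 0.06 in AKR F1 and 7.54 ± 0.02 in DBA F1, and Rpl14 averaged 7.56 ± 0.07 in AKR F1 and 7.62 ± 0.08 in DBA F1 (SD, n = 3 each). None of the 5 passed the test, and their differences ran between -0.07 and 0.19. These low values belong to that probe set. Probe sets that list the same genes together with copies, and are therefore no members, had mean levels of 13.53 and 13.93 for Rps16, 13.44 for Rps27, 12.91 and 13.24 for Rpl12, 13.93 for Rpl39 and 11.72 to 12.74 for Rpl14. They differed by 0.09 and 0.22 for Rps16 and by between -0.28 and -0.02 for the other 4 genes, and 0 passed the probe set test in limma.

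Few ribosomal protein genes passed the test between the crosses, and most differences were small. In limma's fit over all 18193 genes, with Benjamini-Hochberg adjustment over all of them, 1 member was higher in AKR F1 and 0 were lower, 2.17% of 46, against 15.2% of all genes (9.2% higher and 6.04% lower). At an unadjusted p under 0.05 there were 4 members (8.7%), all higher, against 31% of all genes. The median difference was 0.04, against 0.06 over all genes, and the median size of the difference without its sign was 0.10, against 0.16. The number of members called was 1 in every fit that left out 1 array, while the 2771 calls over all genes became 1396, 685 and 793 when AKR F1 replicate 1, 2 or 3 was left out and 1585 when DBA F1 replicate 2 was.

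Since most members gave strong signals, they were also set beside other strong signals, a choice made after the data were seen. Of the 34 members with a mean level of at least 12, 0 passed the test, against 15.7% of 185 other genes at that level, and the median size of the difference was 0.10 in those members, against 0.17. Of the 30 members at 13 or above 0 passed, against 13% of 46 other genes, and the median size was 0.10 in those members, against 0.12. The gap in size was thus narrower among the brightest genes. Both sets of other genes hold Fau, which encodes a ribosomal protein but falls outside the rule, and which passed the test at level 13.20. The part of signal level in the members' small differences was not tested.

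**Figure D2:**
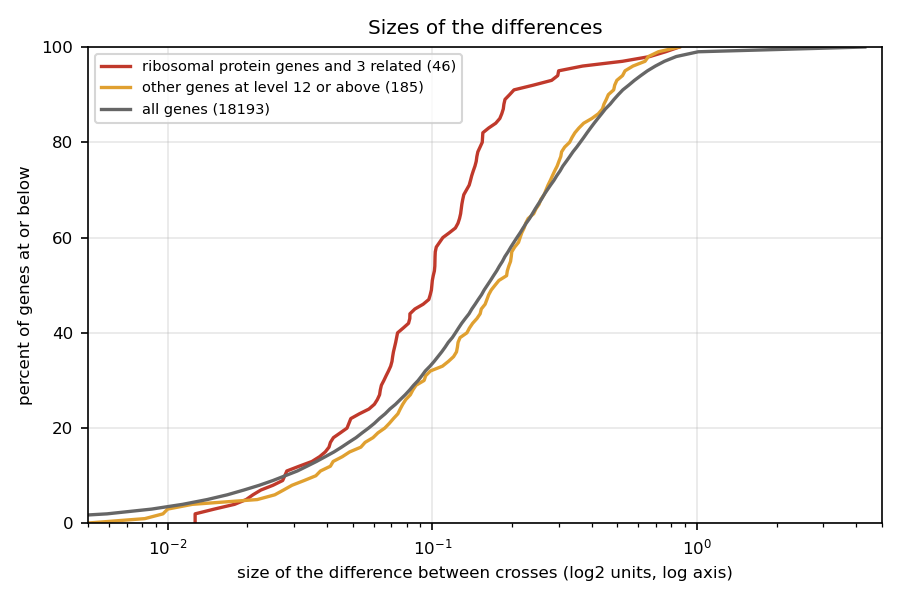
Cumulative percent of genes (y axis) whose difference between crosses, without its sign, is at most the log2 size on the x axis (log axis), for the 46 members, the 185 other genes at level 12 or above and all 18193 genes. The members' curve reaches 50 percent near 0.10 and lies left of the other curves through most of its course.

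The small differences were also tightly bounded. The 95% interval of the difference lay wholly within 1.5-fold in either direction for 44 of the 46 members (95.7%), against 74.1% of all genes, 80.5% of the 185 other genes at 12 or above and 84.8% of the 46 at 13 or above. Rps6 and Rpl27a were the exceptions. Among the 34 members at level 12 or above the largest fold was 1.23, in Rpl41, and no bound of an interval exceeded 0.56. Arrays of a group lay close together, with a median SD over members of 0.05 in AKR F1 and 0.07 in DBA F1, against 0.10 and 0.13 over all genes.

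**Figure D3:**
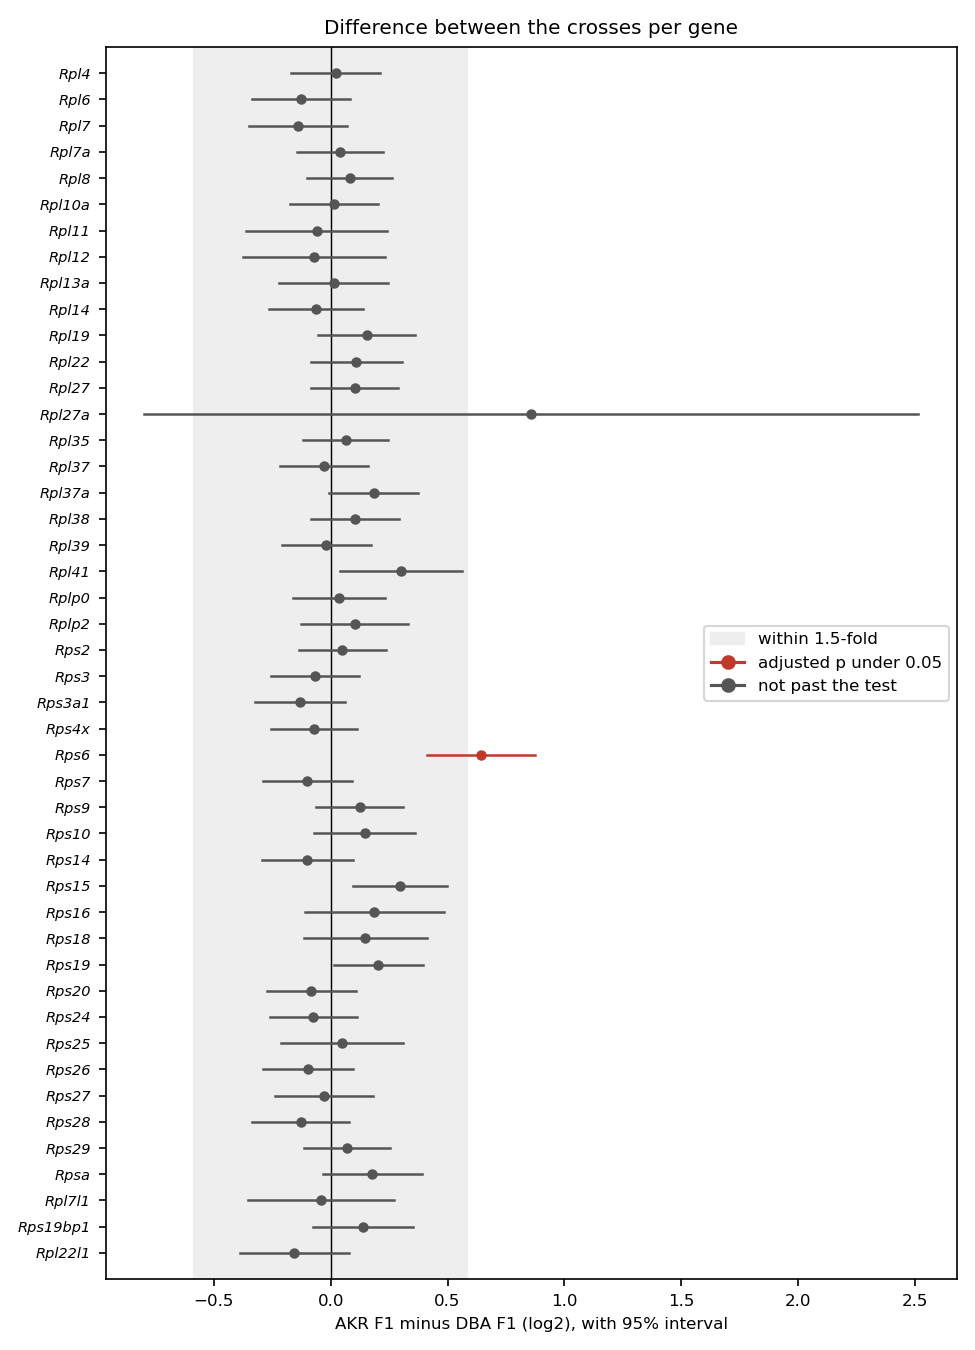
Log2 difference, AKR F1 minus DBA F1, for each member, with its 95% interval from limma; the grey band marks 1.5-fold in either direction. Rps6 alone is past the test at 0.64, and the interval of Rpl27a, at 0.86, runs between -0.80 and 2.51.

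Small differences could still separate the arrays. In 18 of 46 members (39.1%) the arrays of the crosses did not overlap, against 36.7% of all genes, a share near the background. AKR F1 lay above in 12 of them: Rpl8, Rpl27, Rpl35, Rpl37a, Rpl38, Rpl41, Rps6, Rps9, Rps10, Rps15, Rps19 and Rps29. DBA F1 lay above in 6: Rps3a1, Rps4x, Rps7, Rps20, Rps24 and Rps26, all of the small subunit. For all genes these shares were 23% and 13.7%. Both lists hold for the probe set that stands for each gene, and dimmer ones of Rps29 and Rpl7 had DBA F1 above on all arrays.

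The genes of the large and the small subunit had similar medians. Of the 22 large subunit genes 0 passed the test, 15 differences were above 0 and 7 below, the median was 0.04, and the range ran between -0.14 and 0.86. Of the 21 small subunit genes 1 was higher in AKR F1, 11 differences were above 0 and 10 below. Their median was 0.05, and the range ran between -0.13 and 0.64. Over all 18193 genes 15.2% passed, with 11110 differences above 0 and 7081 below. At the probe sets that stand for the genes, groups without overlap had AKR F1 above in 6 genes of each subunit. They had DBA F1 above in 0 large and 6 small subunit genes. Over all genes the shares were 23% with AKR F1 above and 13.7% with DBA F1 above. Other probe sets of large subunit genes had DBA F1 above, such as a dimmer one of Rpl7 and ones listing Rpl5, Rpl9 and Rpl17 with copies. Of the 110 probe sets that list a ribosomal symbol with others, DBA F1 lay above in 31 and AKR F1 in 17. Over all 45037 probe sets these counts were 6708 and 8170. Whether the subunits differ in how their groups separate was not tested.

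Rps6 was the single member past the test. It encodes the small subunit protein that the S6 kinases phosphorylate downstream of mTOR. Its brightest single-symbol probe set had 8.65, 8.85 and 8.79 in AKR F1, against 8.13, 7.99 and 8.24 in DBA F1, averaging 8.76 ± 0.10 in AKR F1 and 8.12 ± 0.12 in DBA F1 (SD, n = 3 each). Every AKR F1 array lay above every DBA F1 array. The difference was 0.64 (SE 0.10, 95% interval 0.41 to 0.87, 1.56-fold), with adjusted p = 0.0081 in limma, and it lay between 0.58 and 0.70 with adjusted p between 0.01 and 0.045 in the 6 limma fits that left out 1 array.

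Other probe sets of Rps6 did not move with it. Its other single-symbol probe set, near the floor of the arrays, differed by 0.03. A further 9 probe sets list Rps6 together with a pseudogene copy and are therefore no members. They had mean levels between 3.91 and 14.11, differed by between -0.18 and 0.12, and 0 passed the probe set test in limma (smallest adjusted p = 0.25). The difference of Rps6 thus stands on 1 probe set, and sequence differences between the strains at the probe positions were not examined.

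After Rps6, the smallest p-values were those of Rps15, Rpl41 and Rps19. Rps15, a small subunit protein, had 13.10, 13.19 and 13.21 in AKR F1, against 12.94, 12.88 and 12.78 in DBA F1, without overlap. The difference was 0.30 (SE 0.09, 95% interval 0.09 to 0.50), with adjusted p = 0.056 in limma, and the gene's other probe set differed by 0.28. Its adjusted p fell under the threshold in 3 alternative limma fits, at 0.049 with quantile normalization, 0.044 among probe sets above the median level and 0.026 with a variance trend, and lay between 0.052 and 0.64 in the others.

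Rpl41, the very short and basic large subunit protein, had 13.47, 13.58 and 13.63 in AKR F1, against 13.40, 13.33 and 13.04 in DBA F1. The groups did not overlap, with DBA F1 replicate 3 the lowest array. The difference of 0.30 (SE 0.11, 95% interval 0.04 to 0.56) had adjusted p = 0.11 in limma, and its 4 probe sets differed by between -0.17 and 0.30.

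The Diamond-Blackfan genes and the stalk proteins can be read from the same fit. Of a list of 12 human disease genes, which is not complete, 7 had a single-symbol probe set. Of these 7 genes 0 passed, against 15.2% of all genes, and their median difference was -0.06. Another 4, Rpl5, Rpl15, Rpl26 and Rpl35a, were covered only by probe sets that list copies too. At the brightest of these Rpl5 differed by -0.16 and Rpl15 by -0.00, without passing. A dimmer probe set of Rpl5 had 5.79, 5.55 and 5.72 in AKR F1, against 6.49, 6.59 and 6.41 in DBA F1, lower by a log2 difference of -0.81 (limma adjusted p = 0.0044). One of Rpl15 was lower too, with a difference of -0.78 (limma adjusted p = 0.0049), so the list holds calls at probe sets shared with copies. Rps19, the gene most often affected in that disease, had 12.71, 12.76 and 12.81 in AKR F1, against 12.58, 12.58 and 12.50 in DBA F1. The difference of 0.20 (SE 0.08, 95% interval 0.01 to 0.39) had adjusted p = 0.14 in limma, with AKR F1 above on all arrays. Rps10 and Rps7 differed by 0.15 and -0.10 (adjusted p = 0.34 and 0.46 in limma). Rplp0 and Rplp2, of the stalk that binds elongation factors, differed by 0.04 and 0.10 (adjusted p = 0.82 and 0.53 in limma), with overlapping arrays.

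Rpl27a had the largest difference of all members and did not pass. This large subunit gene had 8.11, 7.94 and 8.24 in AKR F1, against 5.14, 8.17 and 8.41 in DBA F1. DBA F1 replicate 1 was low and the other 5 arrays lay together. The difference of 0.86 (SE 0.73, 95% interval -0.80 to 2.51) had adjusted p = 0.47 in limma, and without DBA F1 replicate 1 it was -0.19 (SE 0.13, adjusted p = 0.35). The 3 related genes did not pass either: Rps19bp1 differed by 0.14, Rpl7l1 by -0.04 and Rpl22l1 by -0.16.

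The members were also read probe set by probe set. Of the 100 member probe sets 4 were higher in AKR F1 and 1 was lower, 5% in all, against 12.3% of all 45037 probe sets (5.57% higher and 6.73% lower). The count of 5 became 3 without AKR F1 replicate 1 and 2 without AKR F1 replicate 2 or 3 or DBA F1 replicate 2. Besides Rps6, the calls were in Rps3, Rpl35, Rpl13a and Rps18. Of the 23 genes with several probe sets, 12 had differences of both signs (52.2%), against 47.2% of all 9010 such genes, and in none did probe sets of opposite sign both pass. The 38 probe sets whose suffix marks cross-hybridization with other transcripts gave 0 calls and had a median level of 13.13. The 32 plain ones gave 3 higher and 1 lower, against 12.3% of all probe sets called, at a median level of 7.20. The part of suffix and level in the calls was not tested.

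**Figure D4:**
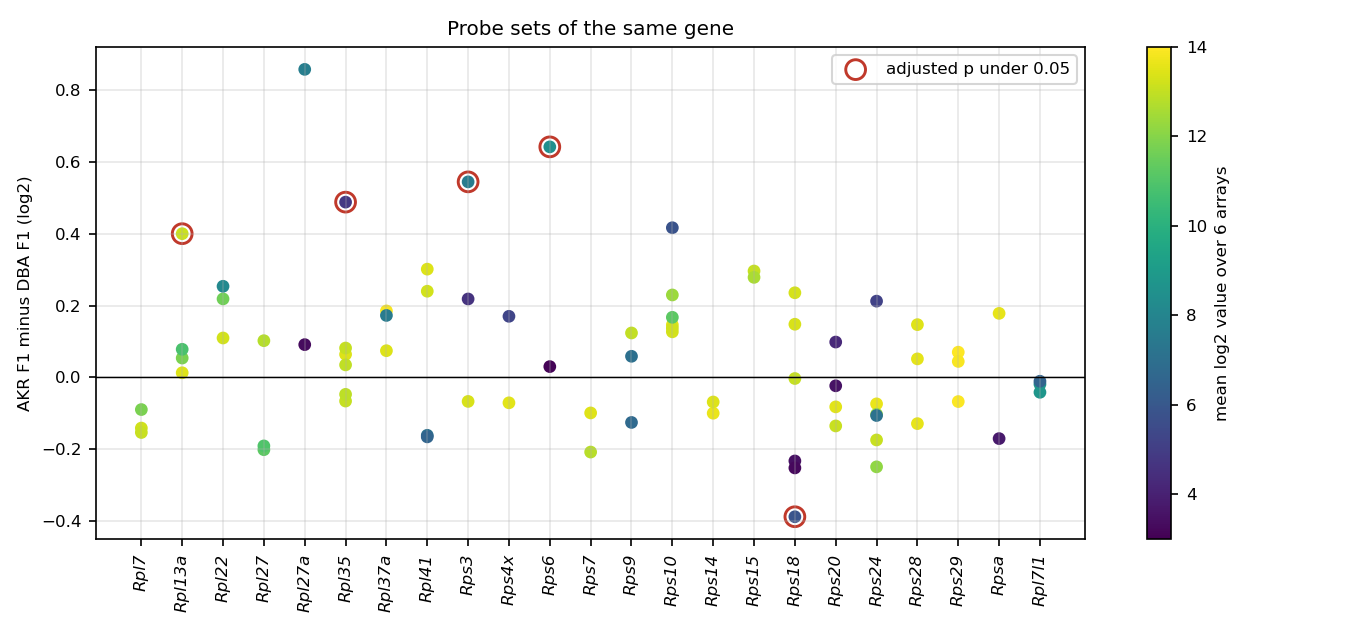
Log2 difference, AKR F1 minus DBA F1, for every probe set of the 23 members with more than 1, coloured by mean log2 value over the 6 arrays. The 5 ringed points passed the test, and 4 of them, those of Rps3, Rpl35, Rps6 and Rps18, lie at levels below 12.

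Among these, Rps3, a small subunit protein, had 7.87, 7.87 and 7.78 in AKR F1, against 7.29, 7.36 and 7.23 in DBA F1, at 1 of its 3 probe sets (limma adjusted p = 0.0088, difference 0.54, SE 0.09). Its brightest probe set differed by -0.07, and its dimmest by 0.22 with AKR F1 above. Rpl13a, a large subunit protein, had 13.24, 13.27 and 13.38 in AKR F1, against 12.91, 12.86 and 12.93 in DBA F1, at a probe set with the difference 0.40 (limma adjusted p = 0.022, SE 0.09). The other 3 single-symbol probe sets, among them the brightest that stands for the gene, differed by between 0.01 and 0.08. Probe sets that list Rpl13a with another symbol went both ways. At level 13.58 the difference was -0.21 with DBA F1 above on all arrays (limma adjusted p = 0.18). At level 5.56, where Flt3l is the other symbol, AKR F1 was higher by 0.50 (limma adjusted p = 0.033).

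Dim probe sets gave the remaining calls. Rpl35, of the large subunit, had 5.21, 5.02 and 4.99 in AKR F1, against 4.62, 4.44 and 4.70 in DBA F1, a difference of 0.49 (adjusted p = 0.023 in limma), while its other 5 probe sets differed by between -0.07 and 0.08. Rps18, of the small subunit, had 5.71, 5.62 and 5.70 in AKR F1, against 5.90, 6.11 and 6.19 in DBA F1, a difference of -0.39 (adjusted p = 0.044 in limma), while its brightest probe set differed by 0.15. Of the other 4 probe sets of Rps18, both dim ones had DBA F1 above on all arrays (-0.25 and -0.23), and the bright ones differed by 0.24 and -0.00. At the called probe sets of both genes the arrays of the groups did not overlap.

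Ribosomal protein genes have many processed copies, and many probe sets list several symbols. Those with several symbols, at least 1 of them ribosomal, numbered 110 and are no members. Of them 2 were higher and 3 lower in AKR F1 (4.55%), against 12.3% of all probe sets, with a median of -0.05 and a range between -0.81 and 0.70. Signals of close copies cannot be separated on such probe sets.

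Outside the rule, several other genes of the pathway passed the test. Fau, which encodes a ubiquitin-like protein fused to a small subunit protein, had 13.38, 13.45 and 13.50 in AKR F1, against 13.00, 12.92 and 12.96 in DBA F1. It was higher in AKR F1 by 0.48 (SE 0.08, 95% interval 0.29 to 0.67, adjusted p = 0.01 in limma), on all arrays. Without AKR F1 replicate 2 or 3 its adjusted p was 0.051 and 0.054. It is the only measured ribosomal protein of its list, and its symbol kept it out of the members.

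The list of elongation factors and other TOP mRNAs had 15 measured genes, with a median of -0.11. Of these 0 were higher and 3 lower in AKR F1 (20%), against 15.2% of all genes called and 6.04% lower. Of their 40 probe sets 0 were higher and 11 lower, against 5.57% higher and 6.73% lower over all probe sets. The lower ones belonged to Npm1, Eif3e, Nap1l1 and Hnrnpa1, and the brightest of Hnrnpa1 differed by -0.02 without passing. Npm1, a nucleolar chaperone, had 11.32, 11.17 and 11.17 in AKR F1, against 11.78, 12.03 and 11.82 in DBA F1, and fell by 0.66 (SE 0.10, adjusted p = 0.0074 in limma). Eif3e, a subunit of an initiation factor, differed by -0.55 (adjusted p = 0.012 in limma, 0.058 without AKR F1 replicate 2). Nap1l1, a histone chaperone, differed by -0.33 (adjusted p = 0.037 in limma) and passed only without DBA F1 replicate 1 among the fits that left out 1 array, with 0.07 to 0.12 without any other. The elongation factor genes themselves did not pass.

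Ribosome biogenesis factors differed in both directions. Of 31 measured, 5 were higher and 8 lower in AKR F1, 41.9% in all, against 15.2% of all genes (9.2% higher and 6.04% lower), with a median of -0.17. Of the 60 probe sets of these genes 4 were higher and 16 lower, against 5.57% higher and 6.73% lower over all probe sets. Ubtf, which activates transcription by RNA polymerase I, had 9.75, 9.91 and 9.84 in AKR F1, against 9.08, 9.08 and 9.04 in DBA F1, which is 0.76 higher (limma adjusted p = 0.003, SE 0.09). Nop58, a core protein of box C/D small nucleolar particles, had 7.29, 6.20 and 6.64 in AKR F1, against 8.38, 8.21 and 8.89 in DBA F1, at its 1 single-symbol probe set, and differed by -1.79 (limma adjusted p = 0.0071, SE 0.27). The groups of both genes lay well apart on all arrays.

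Further calls in this list were spread over the steps of assembly. Nip7, which acts in pre-rRNA processing, fell by 0.61 and Eif6, which keeps the subunits from joining early, was higher by 0.47 (adjusted p = 0.0074 and 0.01 in limma). Taf1b, Ltv1, Wdr43, Tsr1, Ncl and Rrs1 were lower, with differences between -0.56 and -0.39. Bysl, Rrp9 and Polr1a were higher by between 0.30 and 0.43. Rrs1 and Polr1a passed narrowly (adjusted p = 0.043 and 0.048 in limma), and no probe set of either passed the probe set test. The dimmer probe set of Bysl differed by 0.006 without passing. Averaging each gene's probe sets gave adjusted p of 0.069, 0.053 and 0.085 in limma for Ubtf, Nip7 and Eif6.

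**Figure D5:**
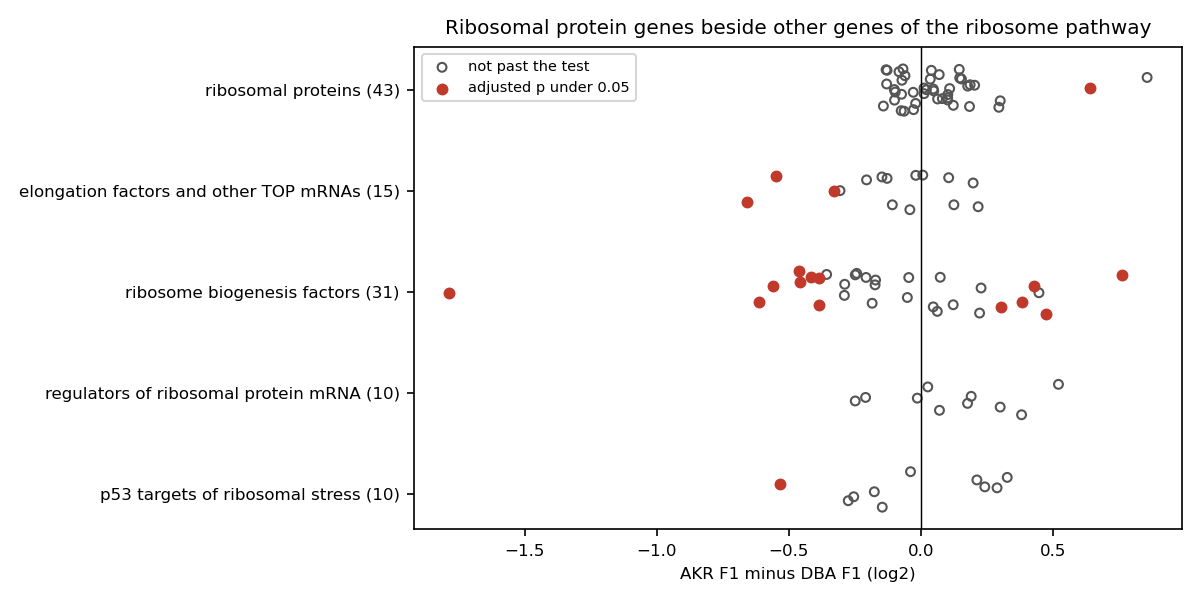
Log2 difference, AKR F1 minus DBA F1, for the 43 ribosomal protein genes and for 4 lists of other genes of the pathway, with genes past the test filled. The ribosomal proteins lie close to 0 apart from Rps6 and Rpl27a, while 13 biogenesis factors passed on both sides of 0.

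The regulators of ribosomal protein mRNA gave 0 calls among 10 genes read from their brightest probe sets, against 15.2% of all genes. Their median was 0.12. At an unadjusted p under 0.05 in limma there were 4, 2 higher and 2 lower, against 31% of all genes. Rps6kb2, an S6 kinase, differed by 0.52 and Tsc1, a brake on mTOR, by -0.25 (adjusted p = 0.087 and 0.082 in limma), and the value of Rps6kb2 was 0.33 without DBA F1 replicate 3. Of all 24 probe sets of these genes 1 was higher and 1 lower, against 12.3% of all probe sets called. They were dimmer ones of Eif4ebp2 (0.99, limma adjusted p = 0.016) and Larp4 (-0.71, limma adjusted p = 0.0076). Of 10 p53 targets that answer ribosomal stress, 1 was lower and 0 were higher, against 15.2% of all genes called. Ccng1 fell by 0.53 (adjusted p = 0.022 in limma). Without any 1 of the AKR F1 arrays its adjusted p lay between 0.072 and 0.079. Its other 2 probe sets were lower as well, by log2 differences of -0.93 and -1.01 (limma adjusted p = 0.012 and 0.0078 over all probe sets). A dimmer probe set of Mdm2, which encodes the ligase of p53, was lower too, at -0.94 (limma adjusted p = 0.015). Other targets differed upwards without passing, Bbc3 by 0.24 and Cdkn1a by 0.33 (adjusted p = 0.083 and 0.11 in limma). At an unadjusted p under 0.05 in limma 3 of the 10 targets were higher and 2 lower, against 31% of all genes. Among 6 paralogs of ribosomal proteins 1 was higher and 0 were lower, against 15.2% of all genes called. Rps4l was higher by 0.82 (adjusted p = 0.036 in limma). Its adjusted p was 0.1 and 0.089 without AKR F1 replicates 1 and 3, and 0.096 and 0.075 without DBA F1 replicates 2 and 3. Rpl3l, a paralog known from striated muscle, differed by -0.89 (SE 0.49, adjusted p = 0.26 in limma), and by -0.20 without DBA F1 replicate 1, where it read 6.89 and the skeletal muscle list had its highest mean, 11.70.

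The arrays themselves differed in ways that moved with the groups. The 3′ to 5′ difference of the control transcripts was 1.66, 2.22 and 2.08 in AKR F1, against 1.44, 1.54 and 1.45 in DBA F1, and the hybridization controls had 9.74, 9.86 and 9.95 in AKR F1, against 10.27, 10.72 and 10.34 in DBA F1. With either as a covariate 0 members passed, and 3 and 2 of all genes did. Rps6 then differed by 0.51 and 0.49, with adjusted p = 0.34 and 0.45 in limma. Skeletal muscle genes had a mean of 7.49 ± 0.62 in AKR F1 and 10.19 ± 1.42 in DBA F1 (SD, n = 3 each), with all 10 genes below 0 and 7 of 10 past the test, and the mean of the list over arrays ran over 6.85 to 8.08 in AKR F1 and 8.87 to 11.70 in DBA F1. Marrow markers were present, with erythroid and neutrophil list means of 10.87 and 13.57 in AKR F1, against 10.70 and 13.37 in DBA F1. The means of the marrow lists differed by between 0.08 for B cells and 0.31 for T cells, but single markers differed more and in both directions. In B cells Cd79a was higher by 1.32, while Ms4a1 and Ebf1 differed by -0.99 and -0.86. Gata1 of the erythroid list was higher by 0.68 and Elane of the neutrophil list by 0.82, both past the limma test. C1qb and C1qa of the macrophage list were higher by 0.75 and 0.65, also past it. Dimmer probe sets of C1qb differed by 0.29 and 0.17 without passing. Below 0 were 2 of 7 erythroid, 3 of 9 neutrophil and 2 of 7 macrophage genes. Among them Epb42, Mmp8 and Ccr2 differed by -0.22, -0.18 and -0.50 without passing. A dimmer probe set of Ccr2 was lower, at -1.74 (limma adjusted p = 0.017). The ribosomal proteins' median per array was 13.28, 13.32 and 13.38 in AKR F1, against 13.30, 13.34 and 13.29 in DBA F1, overlapping values. The part of these measures in the members' differences was not tested.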

How the data were processed

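Per the labels' protocols, Trizol was used to extract total RNA of snap-frozen marrow, which was biotin-labelled and run on Affymetrix arrays. The authors deposited log2 expression values, whose array medians of 5.14 to 5.19 lie on a common scale. RMA and MAS5 are named without role or version, per the submitters' processing notes. The number of arrays limits the precision.

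Groups were read from titles. Control probe sets, 64 in number, were dropped. The platform annotation gave 1 symbol to 34945 probe sets, several to 932 and none to 9160. Limma's lmFit and eBayes (limma 3.58.1, R 4.3.3) compared AKR F1 with DBA F1, two-sided, with 4 residual degrees of freedom and a Benjamini-Hochberg threshold of 0.05, over 18193 genes, each read from its brightest single-symbol probe set, and over 45037 probe sets. The fit was tested on simulated data.

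Members and gene lists were chosen with earlier results of these data known. The rule for named genes took members past the test, the 5 brightest and 5 dimmest, the smallest p in the Diamond-Blackfan and stalk lists, and up to 4 genes with the smallest p in each companion list. Rps15, Rpl41, Rpl27a, Rpl13a, Rps3, Rpl35, Rps18, the related genes, Rpl5, Rpl15, single markers, other probe sets, the lists of members without overlap and the further biogenesis factors were named after their values were seen, as were the levels 12 and 13 and the 1.5-fold bound chosen. Alternatives were 2 normalizations, a filter on dim probe sets, a variance trend, the replicate block, each array left out, other summaries per gene and 2 covariates. No chance test over the list was made.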

Additional observations from a re-analysis of the deposited data

How the results depend on the processing

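The count of ribosomal protein genes higher in AKR F1, 1 in the fit reported, was 2 with quantile normalization, 2 among probe sets above the median level and 2 with a variance trend and robust estimation, where Rps15 was added. It was 2 without the _x_at and _s_at probe sets, where Rpl13a was read from the probe set at 0.40 (adjusted p = 0.019 in limma). It was 0 with the 3′ to 5′ index and 0 with the hybridization controls as a covariate. These covariates separate the groups and left 3 and 2 of the 2771 genes past the test and 0 and 0 of the 5 ribosomal protein probe sets. Leaving out 1 array gave 685 to 3248 genes and 2 to 5 ribosomal protein probe sets, with 3 probe sets without AKR F1 replicate 1 and 2 without AKR F1 replicate 2 or 3 or DBA F1 replicate 2. No ribosomal protein gene was lower in any alternative, and their median difference lay between 0.02 and 0.08. Among 550 values of single named genes under an alternative, 42 lost the call, 6 gained it, 0 called differences turned round, and 11 uncalled ones changed sign. With the replicate block 2357 genes passed, among them 1 ribosomal protein gene, Rps6. In the probe set fit with that block 4 ribosomal protein probe sets passed, those of Rpl13a, Rpl35, Rps3 and Rps6. The deviations of same-numbered arrays correlated at 0.006, -0.060 and 0.073 across genes, which are not independent replicates. Those of arrays with different numbers correlated at between -0.156 and 0.13. These values show no pairing by replicate number, but with 3 arrays a group they cannot exclude it. With 3 arrays a group, differences of members near the floor of the arrays, such as Rps16 at level 3.74, cannot be told from probe background. For the other dim members the part of probe background was not tested.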
